A study of Mus musculus with 12 samples.

Results

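The genes described here encode the protein components of the cytosolic ribosome. They were taken from the deposited count table as protein-coding rows named Rps or Rpl with a number and at most 1 of a few suffix letters, together with Rplp0, Rplp1, Rplp2, Rpsa and Rps3a1. The rule gave 81 of 54532 genes, 32 of the small subunit and 49 of the large subunit, and used no measured value. Ribosomal proteins encoded under other names, such as Fau and Rack1, fall outside it.

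RNA was sequenced from lineage-negative, cKit-positive cells sorted from fresh mouse bone marrow, a fraction that holds the haematopoietic stem and progenitor cells. Wild-type cells (WT) were Dnmt3a+/+ and mutant cells (RH) were Dnmt3aR878H/+, that is, heterozygous for the R878H change in a de novo DNA methyltransferase. The labels give a C57BL/6 background for both, crossed to the Mx1-cre transgene, whose promoter responds to interferon. Mice received vehicle (VEH) or metformin (MET), a biguanide drug, for 1 month in an in vivo competition experiment with 2 animals per treatment group, to ask how metformin acts on HSPCs of each genotype. Each of the 4 groups, named by genotype and treatment (such as WT VEH or RH MET), held 3 libraries, and no label links a library to an animal. Libraries of a group, or of both genotypes under the same treatment, may therefore share an animal, which the fits do not model. The p-values, SD and SE thus rest on the spread between libraries, part of which may be technical.

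Each ribosome carries 1 copy of nearly every ribosomal protein, and surplus protein that is not assembled is degraded. Translation of these mRNAs is controlled as a group through a pyrimidine tract at the 5′ end of the transcript, the 5′ terminal oligopyrimidine (TOP) motif, which is read by mTORC1 signalling and the RNA-binding protein Larp1. Blood-forming cells are known to be sensitive to ribosomal protein dose: loss of 1 allele of several of these genes causes Diamond-Blackfan anaemia, a failure of red cell production, and RPS14 is lost in the 5q- form of myelodysplasia.

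The TOP motif was looked for in RefSeq promoter windows (build GRCm38.p6) as a C at the annotated start followed by at least 4 bases that are C or T, on the transcribed strand only. Of the 81 genes, 61 matched a window by symbol, and 13 of these 61 (21.3%) had such a start, against 448 of 16497 protein-coding genes of the table (2.72%). When the run was allowed to begin up to 10 bases before or after the annotated start, it was found in 38 of 61 (62.3%) and in 35.2% of protein-coding genes. None of 69 mitochondrial ribosomal protein genes had the motif at the start itself. The run at the start was 5 to 13 bases long, with a median of 8. No match says only that these letters are not at the annotated position, and 10 of the genes have more than 1 annotated start.

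The windows below, each 30 bases with 10 before the annotated start, are shown because the results turn on these genes. Rps6 is the ribosomal target of S6 kinase, Rps10 had few counted reads, Rplp2, Rpl38 and Rps27 varied most against the rest, Rpl15 had the longest run at the annotated start itself, Rps12 had the smallest p in 3 of the 4 comparisons between groups, and Rplp0 was among the most abundant. Capitals mark the C and the pyrimidines that follow it.
Rps6, chr4:86857348-86857377, minus strand: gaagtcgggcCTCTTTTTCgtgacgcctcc
Rps10, chr17:27635225-27635254, minus strand: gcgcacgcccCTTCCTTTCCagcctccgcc
Rps27, chr3:90213629-90213658, minus strand: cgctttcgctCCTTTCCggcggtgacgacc
Rpl15, chr14:18270967-18270996, minus strand: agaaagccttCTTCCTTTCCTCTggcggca
Rpl38, chr11:114668570-114668599, plus strand: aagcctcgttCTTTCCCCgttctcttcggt
Rplp2, chr7:141447641-141447670, plus strand: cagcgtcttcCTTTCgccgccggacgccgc
Rps12, chr10:23787190-23787219, minus strand: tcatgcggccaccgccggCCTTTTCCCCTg
Rplp0, chr5:115559457-115559486, plus strand: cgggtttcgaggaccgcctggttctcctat
In Rps12 the run began 8 bases after the annotated start. In Rplp0 no such run lay within 10 bases of it.

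Ribosomal protein transcripts were among the most abundant in these cells. Levels are CPM, read counts scaled to a common library size, with factors from the trimmed mean of M values (TMM). Per kilobase of transcript, 60 of the 81 genes were among the 100 highest of the 14991 genes tested that have a length, and 75 were among the 500 highest. The median was 1378 CPM per kilobase, against 7.0 for all genes tested. Together the members took 6.76% to 11.3% of all counts in a library. The lowest shares, 6.76% in RH VEH 2 and 7.58% in WT MET 2, were those of 2 libraries rich in mitochondrial transcripts. With mitochondrial counts left out, the range was 8.24% to 11.5%. The highest per kilobase were Rplp1 at 4650, Rpl41 at 4447 and Rplp2 at 3343 CPM per kilobase. Rplp1 and Rplp2 encode the acidic proteins of the stalk that recruits elongation factors, and Rpl41 encodes a very short basic peptide of the large subunit.

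**Figure D1:**
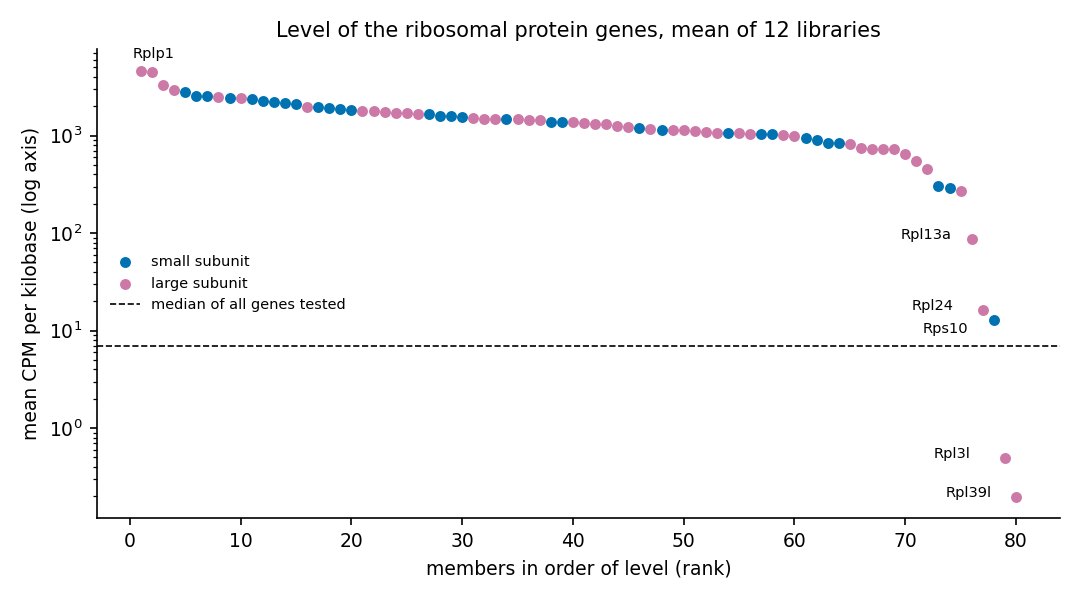
Mean level of each member over the 12 libraries, in CPM per kilobase of transcript on a log axis, in order of level; blue points are small-subunit and pink points large-subunit genes, the dashed line is the median of all genes tested (7.0), and Rpl10l, with 0 reads, is not drawn. Most members form 1 narrow band, and Rpl13a, Rpl24, Rps10, Rpl3l and Rpl39l lie far below it.

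A few members stood far below the others. Rpl10l held 0 reads in all 12 libraries, which allows up to 3 reads in each, and Rpl39l held 31 reads, of which 24 were in RH MET 3. Neither passed the filter on low counts, so 79 of 81 were tested. Rpl3l held 147 reads in all, with 0 in RH VEH 2 and 37 in WT VEH 1. These are copies of Rpl10, Rpl39 and Rpl3; Rpl3l is known as a muscle form, and Rpl10l and Rpl39l as testis forms. Rps27l, the widely expressed copy of Rps27, stood at 105 to 181 CPM.

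Rps10, Rpl24 and Rpl13a, all components of every ribosome, held 1330, 2252 and 19276 reads in the 12 libraries together. They were also the 3 members with more than 50% of their exon bases inside the exons of another annotated gene on the same strand in GENCODE M21: 91.6% of Rps10 lies within RPS10-NUDT3, 71.5% of Rpl24 within Gm28037 and 59.3% of Rpl13a within Gm45713. The rows of these 3 overlapping genes held 0, 1 and 0 reads. How the authors' counting treated reads that fall in more than 1 gene was not given in the sources used here. The row Rps10-ps2, named as a pseudogene of Rps10, held 88746 reads. The levels of Rps10, Rpl24 and Rpl13a are therefore those of the counted rows only.

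Near-identical copies touched other members as well. Of all 150-base stretches of a member's transcript, the length of 1 sequenced read, a median of 27.9% also occurred in a transcript of another gene. The share was 0 for 13 members and above 50% for 24, among them Rps27 at 98.0%, Rps12 at 87.2% and Rpl17 at 75.2%. In the table, 295 rows are named as pseudogenes of 59 members. Their reads amounted to 3.78% to 4.76% of the members' own in each library. Most of these reads lay in few rows: Rps12-ps3 held 145943 reads against 247569 for Rps12, and Rpl17-ps3 and Rpl17-ps10 held 81896 and 59843 against 115312 for Rpl17. Fold changes of members with shared stretches are uncertain to that extent.

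The members moved up and down together between libraries, and they did so within groups. The common shift of a library is given as the median, over the 78 members with a read in every library, of a gene's log2 CPM minus its mean over the 12 libraries. Libraries 1, 2 and 3 of WT VEH had shifts of 0.35, −0.26 and −0.24, and those of WT MET had 0.11, 0.24 and 0.17. The RH VEH libraries had 0.29, 0.27 and −0.39, and the RH MET libraries −0.17, −0.16 and −0.18. Thus 1 of the WT VEH and 2 of the RH VEH libraries were high, the others of these groups low, all 3 WT MET libraries high and all 3 RH MET libraries low. The members' summed level ran from 96402 to 103638 CPM in WT MET and from 76390 to 78168 CPM in RH MET, which do not overlap. It ran from 73859 to 112601 CPM in WT VEH and from 69403 to 107965 CPM in RH VEH, ranges that contain both metformin groups.

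**Figure D2:**
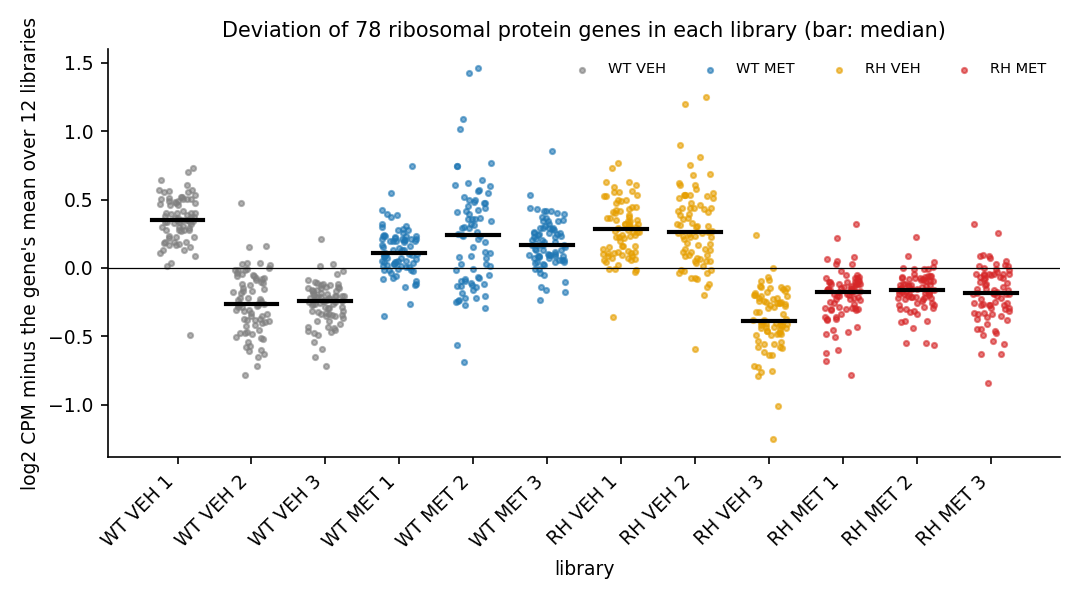
For each library, the log2 CPM of 78 members minus the gene's own mean over the 12 libraries; each point is 1 gene, the black bar is the library's median and colours mark the 4 groups. The medians of the RH MET libraries lie at −0.18 to −0.16 and those of WT MET at 0.11 to 0.24, while WT VEH and RH VEH each hold libraries on both sides of 0.

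The pooled standard deviation of this shift within groups was 0.262 log2 units. Because all members share it, they are not independent observations of a condition. A member's log2 CPM had a median SD of 0.289 over the libraries. Over all genes with a mean of at least 100 CPM the median was 0.209, likewise with no shift subtracted. Once the shift was subtracted, the members' median was 0.183. The small subunit took 41.6% to 44.9% of the members' counts in the 12 libraries.

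WT MET 2 and RH VEH 2 stood apart from the rest in depth and in RNA composition. Transcripts of the mitochondrial genome made up 33.3% and 40.8% of their counts and 1.57% to 4.32% of those of the other 10, and their total counts, 13487326 and 13359583, were the lowest, the others reaching up to 21938003. The summed granulocyte markers (12 of 12 detected) were at 1493 and 1590 CPM there, against 3502 to 7453 CPM in the other 10. The summed megakaryocyte markers were at 1883 and 1478 CPM, against 525 to 986 CPM. Kit, which defines the sorted cells, was at 118 to 200 CPM in all 12 libraries, and Cd3e, a T cell marker, at 0.378 to 3.08 CPM. Dnmt3a was at 39.7 to 59.9 CPM. In bulk RNA, fewer cells of a type and less RNA per cell cannot be told apart.

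Many genes, members among them, lay apart in these libraries. After the library shift was subtracted, 35 of 78 members (44.9%) lay outside the range of the other 10 libraries in both WT MET 2 and RH VEH 2, and in the same direction in both: 16 above and 19 below. With each library's median over the genes considered subtracted in the same way, this held for 25.4% of all genes tested and for 34.6% of the 2147 genes with a mean of at least 100 CPM. Without any subtraction it held for 14 members (17.9%), all above, against 25.3% and 32.1%. The count is thus a description of these libraries and not of the members in particular. The values that follow are deviations from a gene's mean after the library shift was subtracted, so they are relative to the other members. Rplp2, a stalk protein, was 1.23 and 0.98 log2 units above in the 2 libraries. Rpl38, needed for translation of a subset of Hox mRNAs in the embryo, was 1.18 and 0.93 above. Rps24, Rpl41 and Rps3a1 were also above. Rps27 was the lowest, at −0.93 and −0.86, and Rpl23a, Rpl5, Rps3 and Rpl31 were below too. The median transcript length was 635 bases for the 16 and 802 for the 19, against 729 for all members. The libraries were chosen by their mitochondrial share and not by these genes, no test was made, and the part of RNA composition in the difference was not tested.

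**Figure D3:**
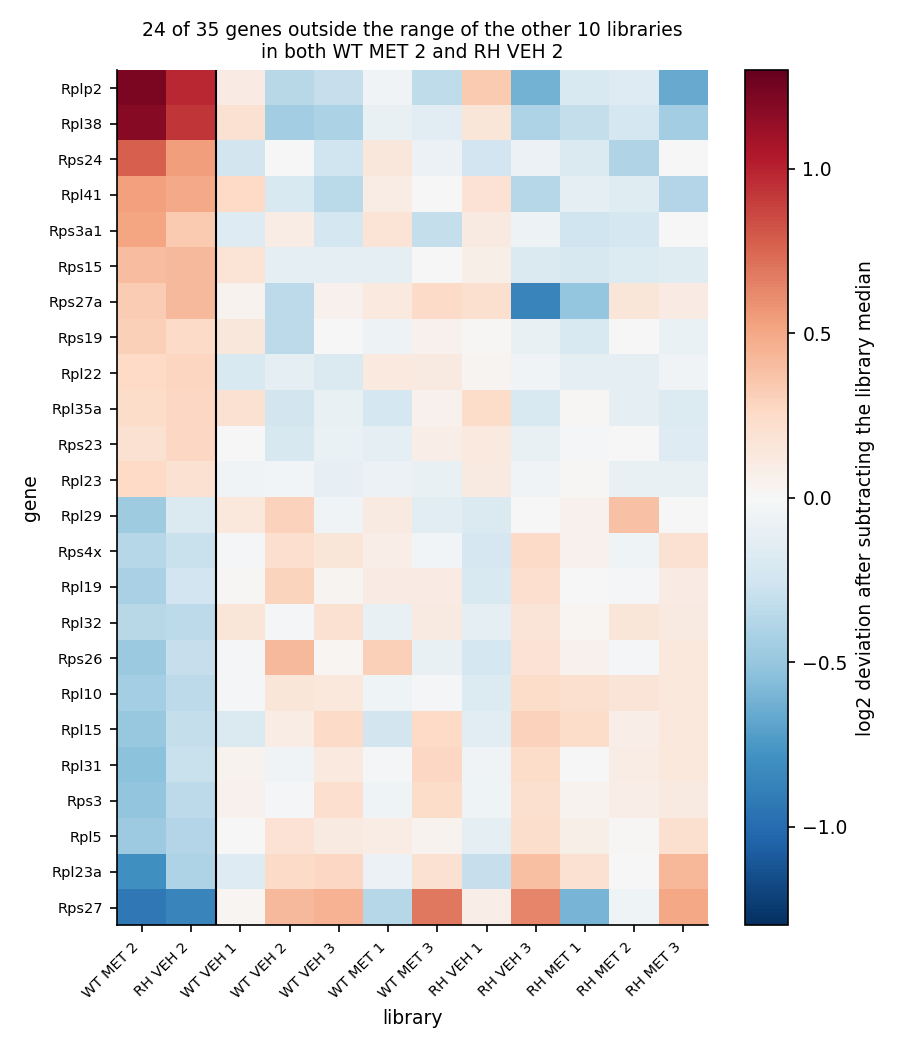
Deviation of 24 of these 35 members, the 12 highest and the 12 lowest, from their mean, in log2 units after subtracting each library's median over 78 members; rows are genes in order of their mean in WT MET 2 and RH VEH 2 (left of the line), red is above and blue below. Rplp2 and Rpl38 are the highest in both of these libraries and Rps27 is the lowest.

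In none of 7 comparisons was any member called at an adjusted p under 0.05 (edgeR's quasi-likelihood test, with Benjamini-Hochberg adjustment over 15003 genes). Few other genes were called: the share called was 0.0% in RH VEH against WT VEH, in RH MET against RH VEH, in WT MET against WT VEH, in the difference of the metformin effects and in the mean metformin effect, and 0.00667%, 1 gene, in RH MET against WT MET and in the mean genotype effect. DESeq2 called 0 members in each as well. The filter on low counts bore on this: without it, edgeR called 1 member in RH VEH against WT VEH (Rplp2), 8 in RH MET against WT MET, 7 in RH MET against RH VEH, 4 in WT MET against WT VEH and 12 in the difference of the metformin effects. The shares of all 27530 genes called in that fit were 0.636%, 1.31%, 0.832%, 0.792% and 1.57%. Rplp2, Rpl38 and Rpl17 were among those called in RH MET against WT MET, and Rps12 as well. The values below therefore describe these libraries, and each comparison shares libraries with others.

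Under metformin, mutant cells had lower values than wild-type cells for nearly all members. The log2 fold change of RH MET against WT MET was below 0 for 78 of 79 members, with a median of −0.39 and quartiles of −0.55 and −0.26; over all genes tested 52.0% were below 0 and the median was −0.02. All 32 small-subunit members were below 0 (median −0.41), as were 46 of 47 of the large subunit (median −0.37), the exception being Rpl23a at 0.07. For 50 members every RH MET library lay under every WT MET library, which was the case for 8.94% of all genes, and for 0 members was the order the opposite (7.97% of all genes). An unadjusted p under 0.05 was reached by 16 members, against 5.78% of all genes. Without WT MET 2, and with RH VEH 2 also left out of the fit, the median was −0.38, and 66 members did not overlap, against 13.2% of all genes.

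Within mutant cells, metformin went with lower values, but the groups overlapped. The log2 fold change of RH MET against RH VEH was below 0 for 76 of 79 members (50.7% of all genes), with a median of −0.33, and for 0 members did every RH MET library lie under every RH VEH library (2.81% of all genes). RH VEH 3 was the lowest of all 12 libraries in the common shift. An unadjusted p under 0.05 was reached by 5 members, against 2.43% of all genes, and by 0 without WT MET 2 and RH VEH 2, where the median was −0.20. In the fit of all 12 libraries, all 12 granulocyte markers were above 0 (median 1.13) and all 13 T and NK cell markers below 0 (median −1.06). None was past the threshold (edgeR), and their part in the members' values was not tested. Summed granulocyte markers were at 1590 CPM in RH VEH 2, up to 5045 CPM in RH VEH, and 4497 to 7058 CPM in RH MET. The marker medians are not given without RH VEH 2. In the separate fits the median was −0.46 in round 1 and −0.16 in round 2, rounds being the libraries present in both count tables and those only in the table of 12. RH VEH 1 was the only RH VEH library of round 1, and RH MET 3 the only RH MET library of round 2. WT MET 2 and RH VEH 2 are both of round 2.

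Within wild-type cells the values under metformin were mostly higher. For WT MET against WT VEH, 74 of 79 members were above 0 (51.9% of all genes), with a median of 0.25, and 4 had an unadjusted p under 0.05, against 4.03% of all genes. Granulocyte markers were all below 0 here (12 of 12, median −0.44) and megakaryocyte markers all above (6 of 6, median 0.88). WT MET 2 had the lowest summed granulocyte markers of all libraries (1493 CPM) and the highest summed megakaryocyte markers (1883 CPM). These marker medians are not given without it. Every WT MET library lay above every WT VEH library for 5 members, Rpl17, Rpl22, Rpl36a, Rps10 and Rps12 (4.98% of all genes). The median was 0.00 in round 1 and 0.39 in round 2, and 0.19 without the 2 libraries of high mitochondrial share, so its size depended on the libraries used. WT MET 1 was the only WT MET library of round 1, and WT VEH 3 the only WT VEH library of round 2. The median moved from 0.10 to 0.46 when single libraries were left out, the highest value being that without WT VEH 1.

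Under vehicle the members' median difference between genotypes was small, but it depended on the libraries used. The library shift had an SD of 0.35 in WT VEH and 0.38 in RH VEH, so these groups cannot show that the genotypes were alike. For RH VEH against WT VEH, 59 of 79 members were above 0 (50.3% of all genes), with a median of 0.12, and 2 had an unadjusted p under 0.05, against 2.03% of all genes. Leaving out WT MET 2 and RH VEH 2 gave a median of 0.01, and leaving out WT VEH 1 gave 0.38. Only Rpl3l, with few reads, had no overlap, each RH VEH library lying under each WT VEH library (3.23% of all genes).

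The difference between the 2 metformin effects, mutant minus wild type, was below 0 for 76 of 79 members (51.7% of all genes), with a median of −0.59. It had an unadjusted p under 0.05 for 16 members, against 6.21% of all genes, and no adjusted p passed. In this difference, too, all 12 granulocyte markers were above 0 (median 1.58). Below 0 were 11 of 13 T and NK markers (median −1.18) and 6 of 6 megakaryocyte markers (median −1.14), which was not tested as to the members. These marker medians include WT MET 2 and RH VEH 2, the libraries lowest in granulocyte and highest in megakaryocyte markers. The median was −0.41 in round 1, −0.55 in round 2 and −0.40 without WT MET 2 and RH VEH 2. Each round held a single library in some of the groups, and round 2 held both WT MET 2 and RH VEH 2. The mean genotype effect had a median of −0.13 and an unadjusted p under 0.05 for 1 member (2.65% of all genes), and the mean metformin effect had a median of −0.04 and 0 such members (1.63%).

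**Figure D4:**
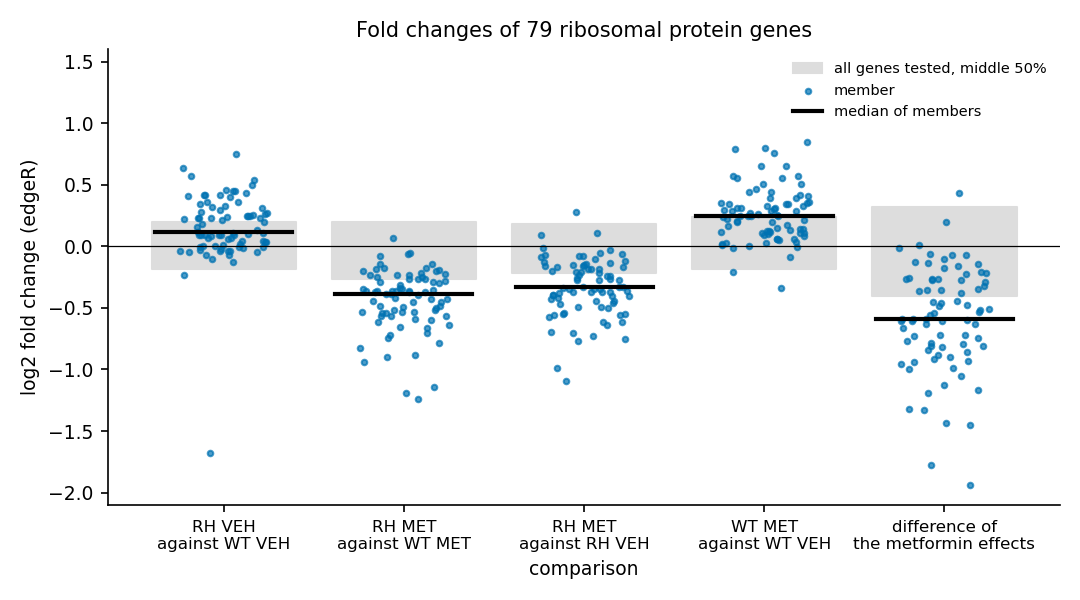
Log2 fold changes (edgeR) of 79 members in 4 comparisons between groups and in the difference of the metformin effects; each point is 1 gene, the black bar is the median of the members and the grey band holds the middle 50% of the 15003 genes tested. The members' medians are 0.12, −0.39, −0.33, 0.25 and −0.59 from left to right, and the comparisons share libraries.

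Markers of other cell types moved alongside in RH MET against WT MET. All 12 granulocyte markers were above 0 (median 0.95), 12 of 13 T and NK cell markers below 0 (median −1.14), 6 of 6 tested megakaryocyte markers below 0 (median −0.71), 7 of 8 stromal and endothelial markers below 0 (median −0.52) and 10 of 10 erythroid markers below 0 (median −0.28). None passed the threshold. The other lists had medians of −0.39 (B cell), 0.32 (monocyte), 0.21 (mast cell and basophil) and 0.12 (progenitor). Summed T and NK markers stood at 93.0 to 120 CPM in WT MET and 49.1 to 102 in RH MET, and summed granulocyte markers at 1493 to 5874 and 4497 to 7058, so both overlapped. The 1493 CPM is that of WT MET 2, and the marker medians above include that library. The part of these markers in the members' values was not tested.

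Rps12 had the smallest p in RH MET against WT MET, RH MET against RH VEH, WT MET against WT VEH and the difference of the metformin effects. It encodes a small-subunit protein of the beak region and lies on the minus strand at chr10:23785183-23787275 (mm10 coordinates of the deposited table). Its level in libraries 1 to 3 was 1172, 955 and 823 CPM for WT VEH, 1675, 1757 and 1400 for WT MET, 1741, 1466 and 767 for RH VEH, and 805, 872 and 955 for RH MET. All WT MET libraries were above all WT VEH and all RH MET libraries, and RH VEH spread over nearly the whole range. The log2 fold change was −0.94 ± 0.239 (SE, 3 libraries per group) for RH MET against WT MET (edgeR, adjusted p = 0.738), 0.80 for WT MET against WT VEH and −0.64 for RH MET against RH VEH. The difference of the metformin effects was −1.44 ± 0.344 (edgeR, adjusted p = 0.648). The row Rps12-ps3, which shares its stretches, gave −0.62 for RH MET against WT MET, and with pseudogene counts added Rps12 gave −0.83.

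Rpl17 and Rpl22, both near the exit of the tunnel through which the nascent chain leaves, had the next values in the difference of the metformin effects. Rpl17 was at 603, 311 and 439 CPM in WT VEH, 693, 815 and 702 in WT MET, 788, 773 and 401 in RH VEH and 353, 512 and 381 in RH MET. Rpl22 was at 674, 467 and 450 CPM in WT VEH, 714, 857 and 737 in WT MET, 757, 886 and 448 in RH VEH and 496, 497 and 519 in RH MET. In both genes WT MET was above WT VEH and RH MET in every library, and RH VEH 3 was far below the other RH VEH libraries. The log2 fold change of RH MET against WT MET was −0.88 ± 0.290 for Rpl17 and −0.64 ± 0.232 for Rpl22, at adjusted p = 0.738 for both (edgeR). The 2 rows of Rpl17 pseudogenes differed from each other: Rpl17-ps3 gave −1.04 and Rpl17-ps10 gave 0.18 in that comparison. Rpl22, known for its part in lymphocyte development, has no 150-base stretch in another transcript.

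Rpl36a and Rpl39, both on the X chromosome, completed the 5 members of smallest p in RH MET against WT MET. Rpl39, a short protein that lines the tunnel, was at 523, 409 and 424 CPM in WT VEH, 615, 471 and 714 in WT MET, 531, 522 and 429 in RH VEH and 458, 441 and 446 in RH MET. Its WT MET libraries lay above those of RH MET, WT MET 2 by the least. Its log2 fold change was −0.45 ± 0.166, and −0.57 ± 0.147 without WT MET 2 and RH VEH 2. Rpl39, too, has no shared stretch. Rpl36a, whose copies share 81.1% of its stretches, gave −0.59 ± 0.204.

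**Figure D5:**
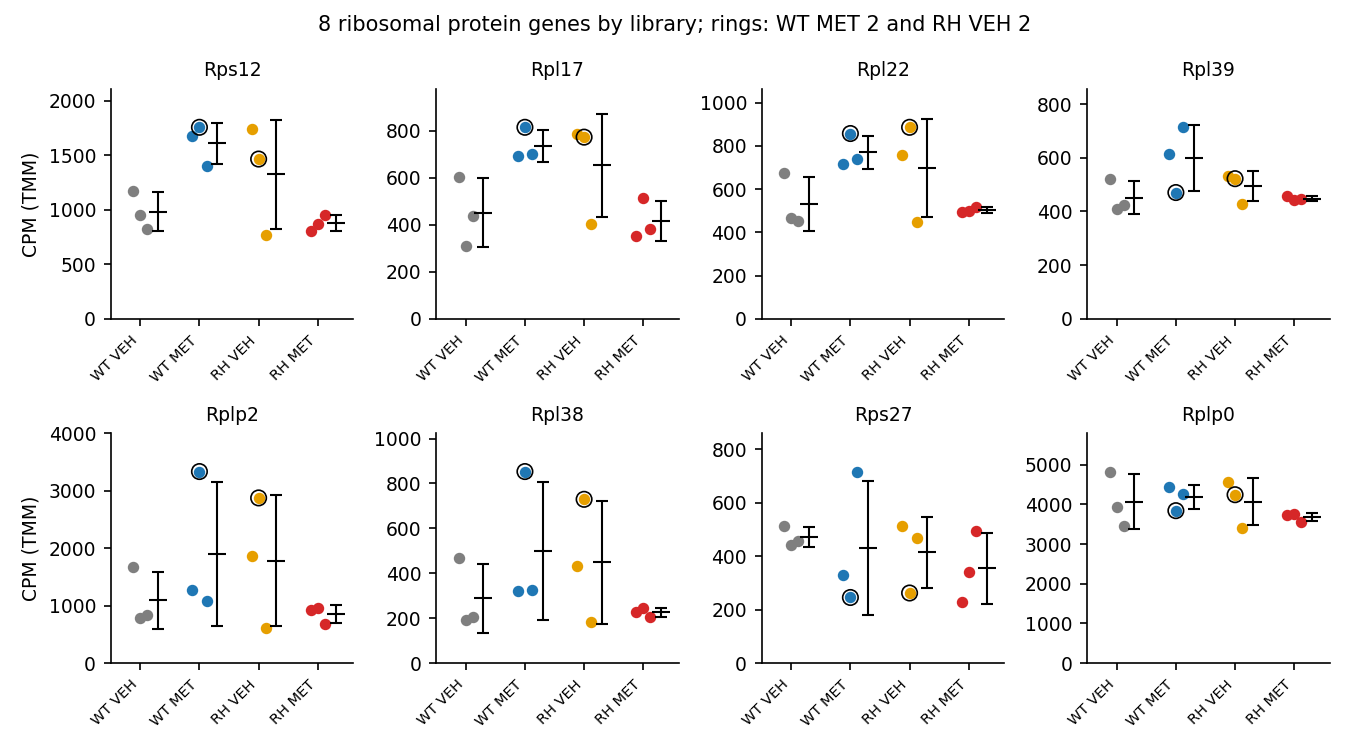
CPM (TMM-scaled) of 8 members in each library, by group; points are libraries, the black dash and bar beside them are the mean and SD of 3 libraries, and rings mark WT MET 2 and RH VEH 2. In Rps12, Rpl17, Rpl22 and Rpl39 the WT MET points lie above the RH MET points, while in Rplp2 and Rpl38 the ringed libraries are by far the highest and in Rps27 they are among the lowest.

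Rpl37a, Rps21 and Rpl18 had, after Rps12 and Rpl17, the smallest p in RH MET against RH VEH, with log2 fold changes of −0.70 ± 0.308, −0.77 ± 0.345 and −0.55 ± 0.254 (edgeR, adjusted p = 0.932 for each). Rps21 of the small subunit stood at 637, 593 and 235 CPM in RH VEH and 311, 315 and 282 in RH MET. Its RH VEH 3 value was below all of RH MET, and the other two were far above. Rpl13a and Rps3a1 had log2 values of −0.81 ± 0.295 and −1.12 ± 0.423 in the difference of the metformin effects. Rpl13a was also the member of smallest p in RH VEH against WT VEH, at 0.45 ± 0.202 (edgeR, adjusted p = 0.977).

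The small subunit's entry channel and decoding site are formed by proteins that include Rps2, Rps3, Rps9, Rps15 and Rps23. None of these 5 passed the test, and all 5 were below 0 in RH MET against WT MET (median −0.52). The signs here and in the lists below stand beside 78 of 79 members and 52.0% of all genes below 0. Rps2 was the highest of the 5 per kilobase. Wild-type libraries had 2593 ± 622 CPM (SD, n = 3) under vehicle and 2565 ± 269.7 under metformin, and mutant libraries 2601 ± 441 and 2320 ± 93.9, a difference within its spread (−0.20 ± 0.179 for RH MET against WT MET). Rps9 was at 1912 ± 263 CPM in WT MET and 1378 ± 130 in RH MET (−0.57 ± 0.293). On the exit side, Rps14, which lies at the platform, was at 1523, 1538 and 1505 CPM in WT MET and 898, 1032 and 1250 in RH MET, groups that do not overlap (−0.54 ± 0.221). Rpsa, the protein also known as the laminin receptor, was at 3820 ± 336 CPM in WT MET and 3109 ± 238 in RH MET.

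Rps6 is phosphorylated by S6 kinases, and Rps10, Rps20 and Rps27a are ubiquitinated when ribosomes stall or are made as ubiquitin fusions. All 4 were below 0 in RH MET against WT MET (median −0.36), without an unadjusted p under 0.05 in any. Rps6 was at 2073, 1933 and 2190 CPM in WT MET and 1715, 1630 and 1875 in RH MET (−0.26 ± 0.146). Rps10 had the opposite sign to most members in RH MET against RH VEH, at 0.28 ± 0.300, on 3.74 to 10.4 CPM per library. With the counts of its pseudogene rows added, the value was −0.25 ± 0.186.

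In the large subunit, Rpl5 and Rpl11 form with 5S rRNA the particle that binds Mdm2 when ribosome assembly fails. They had among the smaller differences: −0.19 ± 0.167 and −0.26 ± 0.245 in RH MET against WT MET and −0.05 ± 0.168 and 0.10 ± 0.241 in RH VEH against WT VEH. Rpl11 stood at 837, 853 and 1216 CPM in WT MET and 849, 858 and 797 in RH MET, so these groups overlapped.

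The stalk (Rplp0, Rplp1, Rplp2 and its base protein Rpl12) gave 4 of 4 below 0 in RH MET against WT MET, with a median of −0.41 and no unadjusted p under 0.05. Rplp2 was at 1666, 783 and 832 CPM in WT VEH, 1265, 3336 and 1083 in WT MET, 1871, 2877 and 602 in RH VEH and 932, 967 and 676 in RH MET. WT MET 2 and RH VEH 2 were its highest libraries, and its fold change of −1.20 ± 0.676 had a large error. Rpl38 had the same order, at 853 CPM in WT MET 2, at 729 in RH VEH 2 and between 184 and 467 for the rest. Rplp0 by contrast ran only from 3403 to 4828 CPM, with −0.25 ± 0.148. Rpl12 was at 1531 ± 81.0 CPM in WT MET and 1248 ± 131 in RH MET (−0.29 ± 0.162).

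Of 9 members at the peptide exit tunnel, 8 were below 0 in RH MET against WT MET (median −0.42), as were 78 of all 79 members and 52.0% of all genes. An unadjusted p under 0.05 was reached by 16 of the 79 members and by 5.78% of all genes. Of the 9, it was reached by 4: Rpl17, Rpl22, Rpl39 and Rpl26 (−0.42 ± 0.160). The highest of the 9 per kilobase, Rpl4, was at 3139 ± 244 CPM in WT MET and 2904 ± 123 in RH MET, a difference within the spread (−0.14 ± 0.142). Rpl23a, which binds the signal recognition particle at the exit, was at 603, 401 and 763 CPM in WT MET and 604, 530 and 707 in RH MET.

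Genes of Diamond-Blackfan anaemia gave 19 of 19 below 0 in RH MET against WT MET, from −0.83 to −0.06, with a median of −0.37 that is close to that of all members. The 3 of smallest p were Rpl26 (−0.42 ± 0.160), Rps24 (−0.83 ± 0.334) and Rps7 (−0.39 ± 0.164). Rps24 was at 2085, 3521 and 1858 CPM in WT MET and 1358, 1190 and 1528 in RH MET, WT MET 2 being the highest of all. Rps7 was at 1566, 1123 and 1520 CPM in WT MET and 951, 992 and 1283 in RH MET, and overlapped through WT MET 2. Rps26 gave −0.28 ± 0.159. Of the copies, Rps27l gave −0.29 ± 0.192 and Rpl3l −1.24 ± 0.788, the latter on 0.12 to 1.12 CPM in these 6 libraries.

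Members with and without a TOP motif at the annotated start had similar median fold changes, which were not tested. In RH MET against WT MET the median was −0.36 for the 13 with it and −0.37 for the 46 others with a promoter window, and in the difference of the metformin effects it was −0.51 and −0.53. Within 10 bases of the start, however, the run was found in 38 of the 61 members with a window. Some of the 46 therefore carry it nearby, and this split cannot separate members with the motif from those without. The starts of Rplp2, Rpl38 and Rps27, printed above, all carry the motif, and these genes lay on opposite sides of the other members in WT MET 2 and RH VEH 2. By shared sequence, the 11 tested members with no shared 150-base stretch had a median of −0.45 in RH MET against WT MET and the 24 with more than 50% shared a median of −0.35.

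Other genes of translation were read from the same fit. Outside the naming rule, Fau, whose product is cleaved to give a small-subunit protein, gave −0.71 ± 0.305 in RH MET against WT MET. In that comparison 52.0% of all genes tested were below 0. Other known TOP transcripts, mostly elongation and initiation factors, gave 13 of 16 below 0 there, with a median of −0.14. Of these, Eef1b2, an exchange factor of elongation, gave −0.67 ± 0.275 and Tpt1, a growth-related protein, −0.43 ± 0.160. Mitochondrial ribosomal proteins gave 63 of 77 below 0 with a median of −0.19. Ribosome assembly factors had 13 of 22 above 0 with a median of 0.03. Genes that control TOP mRNAs or ribosome synthesis gave 11 of 14 above 0 with a median of 0.17, led by Mtor, the kinase of mTORC1, at 0.52 ± 0.179 and Larp1 at 0.29 ± 0.152. None of these genes passed the threshold (edgeR, adjusted p of 0.738 or higher for those named), and no list was tested against another.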

How the data were processed

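Bulk RNA was sequenced as 150-base paired reads from NEBNext Ultra libraries, per the labels' protocols. The deposited values are raw read counts per gene; the tools STAR 2.5 and HTSeq 0.6.1 and, as build, mm10 come without settings, per the submitters' processing notes. The handling of strand and of reads with several positions was not given in the sources used here.

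A table of 12 libraries was used, with 13359583 to 21938003 counts each. A second table of 8 columns repeats 6 of them (round 1); its other 2 columns match no sample and were not used, and libraries only in the first table are round 2. Libraries are numbered here as in the table of 12, and these numbers need not be those of the sample titles. Going by column names, only the group is known for 7 of the 12. Among the 7, RH VEH 1 is repeated in the second table, where the RH VEH column that matches a sample is numbered 2. The sample titled RH VEH 2 is therefore RH VEH 1 of this text, not its RH VEH 2, which is of round 2. No 2 libraries of a group agreed within sampling noise.

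Counts were tested with edgeR 4.0.16 (R 4.3.3): TMM, filterByExpr (15003 genes), robust quasi-likelihood, a mean per group plus round, adjusted by Benjamini-Hochberg over all genes tested. The script was tested on simulated data. Alternatives included DESeq2 1.42.0 and other library sizes, filters and samples. Members, lists and the rule for named genes (the 5 of smallest p per comparison, the highest and the smallest p of each role, the extremes in level) were chosen with earlier results of these data known. Rpl24, Rps21, Rpl38, Rps27 and the pseudogene rows were named after their values were seen. Lengths are those of the shortest principal GENCODE M21 transcript. Rows without a gene name numbered 0. Where a single round leaves 1 library in a group, it is assumed to vary like the other groups. Some list results are not reported here.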

Additional observations from a re-analysis of the deposited data

How the results depend on the processing

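No member was called in any comparison under DESeq2, DESeq2 size factors, library sizes without the mitochondrial genome, no round term, single rounds, only the groups compared, added pseudogene counts or leaving out any 1 library. With no filter on low counts (27530 genes), 1 member was called in RH VEH against WT VEH, 8 in RH MET against WT MET, 7 in RH MET against RH VEH, 4 in WT MET against WT VEH and 12 in the difference of the metformin effects, where 0.636%, 1.31%, 0.832%, 0.792% and 1.57% of all genes were called. The SE of Rplp2 in RH MET against WT MET was 0.196 in that fit and 0.676 with the filter, and the cause was not tested.

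With library sizes set to the members' own counts, which centres the members by construction, the medians were 0.0305 for RH MET against WT MET, −0.0094 for RH MET against RH VEH and −0.013 for the difference. In RH MET against WT MET, Rps2 (0.20), Rpsa (0.0469), Rps6 (0.13), Rpl11 (0.16), Rpl5 (0.21), Rpl12 (0.11), Rpl4 (0.25), Rps26 (0.10) and Rps27l (0.11) then changed sign. So did Rpl11 in round 1 alone (0.03) and Rpl5 (0.0396), Rpl4 (0.0057) and Rps26 (0.0518) in round 2 alone. Of 1027 alternative values of 43 named values, 1014 kept their sign.

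When each library was left out in turn, the medians ran from 0.0081 to 0.38 in RH VEH against WT VEH, −0.49 to −0.34 in RH MET against WT MET, −0.48 to −0.20 in RH MET against RH VEH, 0.10 to 0.46 in WT MET against WT VEH and −0.74 to −0.41 in the difference. As a share of protein-coding nuclear counts the members took a mean of 9.73% for WT VEH, 11.3% for WT MET, 10.6% for RH VEH and 9.03% for RH MET. The SD over 3 libraries was 1.80, 0.537, 1.82 and 0.369 in that order. WT VEH ran from 8.44% to 11.8% and RH VEH from 8.50% to 11.9%, ranges that contain the means of both metformin groups. Of all counts the 4 means were 9.28%, 9.45%, 8.49% and 8.55%, and 8.89% for RH MET with pseudogene reads added.

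No label says that a library number marks a shared source, and the numbers were not taken to pair the samples, since not every same-numbered pair of libraries had deviations correlated over 0.1. The correlations ran from −0.014 to 0.489 and were over 0.1 in 14 of 18 pairs, and 10 of 12 libraries correlated best with their own number. But libraries of number 1 were all of round 1 and those of number 3 all of round 2, and the round was not removed from these deviations. Among libraries of number 2 the highest correlation, 0.366, was that of WT MET 2 with RH VEH 2, the 2 of high mitochondrial share. A shared source, the round and RNA composition therefore cannot be told apart in these correlations. The 6 pairs of number 3, all of round 2, had the range 0.268 to 0.489. With the number as a replicate block the medians were 0.09, −0.34, −0.27, 0.23 and −0.47 in the same order, and 0 members were called. Depth limits Rpl3l, Rpl39l and Rpl10l most.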
